A study of Mus musculus with 2 samples.

Results

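The Id and Msx genes of the mouse ureter are described here with Bambi, 7 genes that BMP signalling is known to switch on in many tissues. The members are Id1, Id2, Id3, Id4, Msx1, Msx2 and Bambi, taken by gene name from the non-control spots of both arrays. Each has 1 spot, so that 7 of 43020 gene spots and 7 of 31870 gene names are covered. Total RNA of ureters of NMRI embryos at stage E18.5 was hybridised to 2 Agilent arrays, each with both genotypes in different dyes. The mutant RNA, called cDKO below, came from embryos with Tbx18(cre/+), that is 1 Cre allele at the Tbx18 locus, combined with Tbx2(fl/fl) and also Tbx3(fl/fl). The control RNA came from embryos with Tbx18(+/+), combined with Tbx2(fl/?) and also Tbx3(fl/?), which therefore share floxed alleles of both target genes but carry no Cre allele. Cre from the Tbx18 locus acts in the descendants of Tbx18-positive cells, which include the mesenchyme of the ureter, and since the controls carry no Cre allele its own effect and that of the deletion cannot be told apart. The male array held cDKO RNA in AlexaFluor647 and control RNA in AlexaFluor555, and the female array had the dyes exchanged, so sex and dye run together. The number of embryos behind each RNA is not given in the labels, and nothing says that the 2 arrays hold separate litters, so the spread between them may be technical. Each p-value combines that spread with a variance estimated over all probes.

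BMP ligands bind a pair of receptor kinases that phosphorylate SMAD1, SMAD5 and SMAD9, which enter the nucleus with SMAD4. The Id genes are among the most direct targets of these SMADs. Their products are helix-loop-helix proteins without a DNA-binding region, which pair with E proteins such as TCF3 and keep them off DNA. Msx1 and Msx2 encode homeodomain transcription factors that mostly repress, and Bambi encodes a receptor-like membrane protein without a kinase that dampens TGF-beta and BMP signals. In the ureter, BMP4 from the mesenchyme is known to be needed for smooth muscle to form around the epithelial tube.

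Upstream sequences of 3 members and 1 array probe are shown because the highest ratios among the members belonged to Id3 and Msx2 and the lowest to Id2. The promoter entries are from RefSeq on GRCm38.p6, which held 5 of the 7 members, and the 250 bases before the annotated start are printed 5′ to 3′ on the gene's strand. In the promoters, capitals mark AGAC or its reverse GTCT, the core that SMAD proteins bind, and GGCGCC, a GC-rich SMAD motif. The array probe is printed without marks.
Id3 promoter, chr4:136143572-136143821, plus strand: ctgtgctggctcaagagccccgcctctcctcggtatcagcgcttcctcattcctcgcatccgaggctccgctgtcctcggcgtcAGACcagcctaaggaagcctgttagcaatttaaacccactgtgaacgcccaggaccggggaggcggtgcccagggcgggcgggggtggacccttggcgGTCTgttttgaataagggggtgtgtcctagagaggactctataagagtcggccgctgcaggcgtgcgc
Msx2 promoter, chr13:53472781-53473030, minus strand: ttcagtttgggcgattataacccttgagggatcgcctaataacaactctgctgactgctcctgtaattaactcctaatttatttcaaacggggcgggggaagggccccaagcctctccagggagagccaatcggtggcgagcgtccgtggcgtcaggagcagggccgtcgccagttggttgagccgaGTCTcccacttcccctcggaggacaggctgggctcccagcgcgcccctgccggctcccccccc
Id2 promoter, chr12:25096093-25096342, minus strand: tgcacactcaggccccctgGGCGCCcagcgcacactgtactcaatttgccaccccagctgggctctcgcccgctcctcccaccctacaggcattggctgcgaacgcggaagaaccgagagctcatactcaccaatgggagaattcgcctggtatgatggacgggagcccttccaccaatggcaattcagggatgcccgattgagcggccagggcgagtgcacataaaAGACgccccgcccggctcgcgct
Id3 array probe, chr4:135700075-135700249 on mm9: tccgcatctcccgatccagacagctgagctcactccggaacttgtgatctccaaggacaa
The Id3 probe is 60 bases long while its coordinates span 175 bases on mm9. The other 6 probes cover 60 unbroken bases each.

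The Id3 window held AGAC or GTCT at 2 places, beginning 166 and 68 bases before the start, and no GGCGCC. The Msx2 window held GTCT once, 63 bases before the start. The Id2 window held AGAC once, 23 bases before the start, and GGCGCC once. The Id4 window had 1 GGCGCC and no AGAC, and the Msx1 window had neither. On both strands and with overlaps counted, AGAC or GTCT stood in 82.9% and GGCGCC in 9.59% of all 32851 promoter windows of this length. The T-box core TCACAC or its reverse GTGTGA, found in 12.3% of all windows, was in none of the 5. The E-box CANNTG, found in 66.2% of all windows, was present once each in Id2, Msx1 and Msx2. These matches describe letters only.

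Of the 6 measurable members 0 passed the test between cDKO and control ureters. Id3 and Msx2 had the highest ratios, 1.40-fold and 1.39-fold on average and above 1 on both arrays, and Id2 had the lowest, 0.873-fold and below 1 on both. Id1, Id4 and Msx1 averaged between 1.11-fold and 1.15-fold. Bambi was not well above background in any of the 4 RNAs. The count of 0 called among 6 tested stands beside 4.45% of all 23419 tested genes called by the same fit (limma, adjusted p under 0.05), 2.18% higher and 2.27% lower. At an unadjusted p under 0.05 in the same limma fit, 2 of the 6 members and 3751 of all 23419 tested genes were counted. In bulk RNA such as this, fewer cells of a type and less RNA per cell cannot be told apart.

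**Figure D1:**
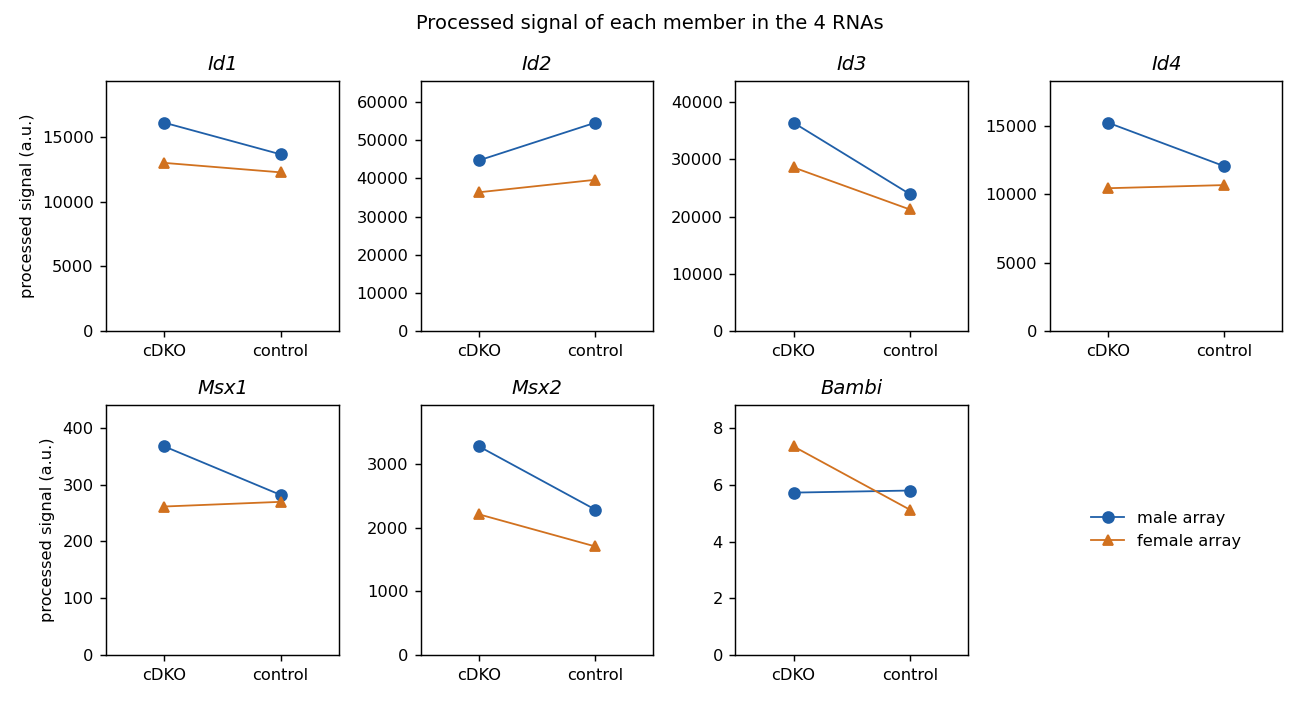
Processed signal in arbitrary units of each member's probe in cDKO and control RNA, with 1 panel per gene, circles for the male array and triangles for the female array; lines join the 2 RNAs of an array. Id3 and Msx2 are higher in cDKO on both arrays, Id2 is lower on both, and Bambi lies between 5.13 and 7.36 throughout.

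Id3 is an Id gene known as a strong SMAD target. Its processed signal, the scanner program's background-subtracted and dye-normalized intensity, was 36413 in male and 28605 in female cDKO RNA, against 23956 in male and 21271 in female control RNA. Both cDKO values lay above both control values, and how many of all genes separate in this way was not counted. After loess normalization the log2 ratio of cDKO over control was 0.56 for males and 0.41 for females, a mean of 0.48 ± 0.11 (SD, n = 2; 95% interval 0.13 to 0.83). The unadjusted p was 0.0100 and the adjusted p 0.135 (limma, Benjamini-Hochberg over 29274 probes). With an intensity trend in the variance the adjusted p was 0.0329, the one setting that called Id3. Over all 10 other settings its adjusted p ran from 0.0329 to 1.00, and its mean from 0.48 to 0.53.

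Id1 is, like Id3, also known from endothelial cells. The Id1 signal was 16090 in male and 12991 in female cDKO RNA, against 13652 in male and 12261 in female control RNA. Within each array the cDKO value was the higher one. Across arrays the genotypes overlapped, since the female cDKO value lay below the male control value. The mean log2 ratio was 0.21 ± 0.12 (SD, n = 2; 95% interval -0.14 to 0.56; limma adjusted p = 0.633).

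Id2, another Id gene, had ratios below 0. The probe gave signals of 44713 in male and 36364 in female cDKO RNA, against 54564 in male and 39625 in female control RNA. Within each array the cDKO value was the lower one, while across arrays the groups overlapped. The mean log2 ratio was -0.20 ± 0.019 (SD, n = 2), with -0.18 for males and -0.21 for females. Its 95% interval reached from -0.54 to 0.15, and the limma adjusted p was 0.656.

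Id4, the remaining Id gene, had opposite signs on the arrays. Signals were 15228 in male and 10445 in female cDKO RNA, against 12049 in male and 10674 in female control RNA. The log2 ratio was 0.37 for males and -0.052 for females, so that the mean of 0.16 was smaller than its SD of 0.30 (n = 2; limma adjusted p = 0.761). The 95% interval was -0.21 to 0.53.

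Among the Msx genes, Msx2 had ratios close to those of Id3. Its signal was 3275 in male and 2208 in female cDKO RNA, against 2284 in male and 1704 in female control RNA. Each cDKO value exceeded the control value of its array, and the groups overlapped across arrays. The log2 ratio was 0.54 for males and 0.42 for females, a mean of 0.48 ± 0.086 (SD, n = 2; 95% interval 0.13 to 0.83; unadjusted p = 0.0105; limma adjusted p = 0.139). Its adjusted p ran from 0.0999 to 0.867 over the other settings. Msx1 was dim, with spots 15.0 to 19.2 times their local background. Its processed signal was 367.1 in male and 261.3 in female cDKO RNA, against 281.7 in male and 269.5 in female control RNA. The log2 ratio of Msx1 was 0.36 for males and -0.052 for females, with a mean of 0.16 ± 0.29 (SD, n = 2; 95% interval -0.21 to 0.52; limma adjusted p = 0.767).

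**Figure D2:**
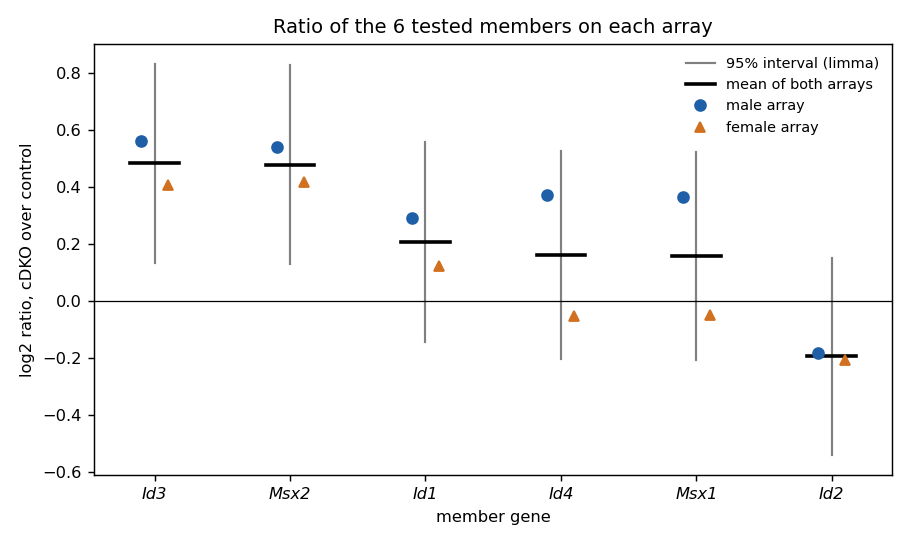
Log2 ratio of cDKO over control for the 6 tested members, with circles for the male array, triangles for the female array, thick bars for the mean and thin lines for the 95% interval of the limma fit. Id3 and Msx2 are the members whose interval lies above 0, before adjustment over all probes.

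Bambi gave no ratio. Its signal was 5.73 in male and 7.36 in female cDKO RNA, against 5.81 in male and 5.13 in female control RNA. For comparison, the dimmest gene spots marked well above background had signals of 17.94 in male and 10.90 in female cDKO RNA, against 10.73 in male and 20.67 in female control RNA. Its probe on chromosome 18, 3516008 to 3516067 on mm9, therefore gives only an upper bound in each RNA. The other probes lie on mm9 at chromosome 2, 152563083 to 152563142 for Id1, chromosome 12, 25778904 to 25778963 for Id2, chromosome 13, 48358668 to 48358727 for Id4, chromosome 5, 38212305 to 38212364 for Msx1, and chromosome 13, 53562318 to 53562377 for Msx2. No annotation of exons or UTRs on mm9 was used here.

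The size of a change that could be called sets how these values read. Among all called genes the smallest absolute mean log2 ratio was 0.60, above the 0.48 of Id3 and Msx2. The largest among genes not called was 1.92, so 0.60 is no fixed limit. The middle 90% of all genes lay between -0.41 and 0.50. The 95% intervals of the members allowed a change of up to 1.78-fold for Id3 and 1.77-fold for Msx2, and down to 0.687-fold for Id2. The scanner program's own error of a single ratio, in the authors' files, was 0.20 to 0.21 log2 for each of the 6 members on each array.

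The signs of the members were mixed. Over the 6, the median was 0.18 (0.37 male, 0.035 female) on the log2 scale, beside a median of 0.0045 over all genes. Of the 6, Id1, Id3 and Msx2 were above 0 on both arrays, Id2 was below 0 on both, and Id4 and Msx1 had opposite signs on the arrays. Of all genes 31.7% were above 0 on both arrays, 28.0% below 0 on both and 40.3% had opposite signs. Within arrays, Id3 exceeded Id2 by 0.74 log2 units for males and 0.61 for females, a mean difference of 0.68 ± 0.089 (SD, n = 2). Msx2 exceeded Msx1 by 0.17 and 0.47, a mean of 0.32 ± 0.21 (SD, n = 2). These differences were not tested, since an exact test on 2 arrays cannot give a p below 0.5.

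In the list of BMP ligands, 3 of 12 tested genes rose in cDKO and 0 fell, with a median log2 ratio of 0.28. Of all tested genes 2.18% were called higher and 2.27% lower, with a median of 0.0045. Over the other settings the ligand median ran from 0.19 with no filter to 0.37 in the deposited value table. The list was drawn up by name and also holds Bmp1, a protease. Whether each of its ligands acts through SMAD1, SMAD5 and SMAD9 was not checked. Bmp6 rose 2.21-fold (1.15 ± 0.088 log2, SD, n = 2; limma adjusted p = 0.000453), with processed signals of 3990 and 2636 in male and female cDKO RNA, against 1703 and 1218 in male and female control RNA. Gdf10, a BMP-related ligand, rose by 0.83 ± 0.40, with 1.11 for males and 0.55 for females (limma adjusted p = 0.0118). Bmp4, the ligand of the ureteric mesenchyme, rose by 0.68 ± 0.19 (limma adjusted p = 0.0281). All 10 called genes of the BMP lists lost their calls in the deposited value table, where 0 genes were called. Bmp4 also lost its call with processed signals, offset 0 or median centring, Gdf10 with processed signals or median centring, and Bmp6 with processed signals.

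Among receptors and co-receptors 1 of 10 tested genes rose and 1 fell, beside 2.18% of all tested genes called higher and 2.27% lower. Eng, endoglin, a co-receptor of endothelial cells, rose by 0.73 ± 0.33 log2 (SD, n = 2; limma adjusted p = 0.0241), and Rgmb, a membrane-bound BMP co-receptor, fell by 0.64 on the log2 scale (SD 0.20; limma adjusted p = 0.0397). Both also lost their calls with processed signals, median centring or no filter, and Rgmb with offset 0. Of the 4 SMADs that carry the signal 0 were called, and their ratios lay between 0.11 and 0.29, with Smad9 at 0.29 ± 0.15 and Smad1 at 0.23 ± 0.047 (SD, n = 2).

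Among inhibitors of the pathway 3 of 16 tested genes were higher in cDKO and 1 was lower. The shares over all tested genes were 2.18% higher and 2.27% lower. Chrdl2, a chordin-like antagonist, was 0.364-fold (-1.46 ± 0.25 log2, SD, n = 2; limma adjusted p = 5.51e-05), with processed signals of 77.7 and 43.9 in male and female cDKO RNA, against 276.6 and 187.7 in male and female control RNA. The groups did not overlap, and the share of all genes without overlap was not counted. Bmper, a BMP-binding secreted protein, rose by 0.72 ± 0.19 (limma adjusted p = 0.0195) and Smad6, an inhibitory SMAD, by 0.80 ± 0.30 (limma adjusted p = 0.0119). Chrdl2 kept its call in 9 of 10 other settings, all but the deposited value table. Of these, Aquantile after loess repeats the main ratios and is no separate check. Bmper and Smad6 lost their calls in 3 settings, the deposited value table, processed signals and median centring.

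Other genes known as BMP targets gave 2 higher and 0 lower of 13 tested, with a median log2 ratio of 0.29 (0.50 for males and 0.12 for females). Atoh8, a bHLH factor induced by BMP in several cell types, rose 1.75-fold (0.81 ± 0.27 log2, SD, n = 2; limma adjusted p = 0.0107), and the other was Smad6, which is also counted among the inhibitors. Atoh8 lost its call in the same 3 settings as Smad6. No test was made of whether Atoh8 and Smad6 differ from the Id and Msx genes. Over the ligand, receptor, SMAD, inhibitor and target lists together, 8 of 51 tested genes rose and 2 fell, with a median of 0.22. Beside this, 2.18% of all tested genes were called higher and 2.27% lower, with a median of 0.0045.

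The E proteins, partners of the ID proteins, gave 0 of 3 called. Tcf3 was at 0.62 ± 0.22 log2 (SD, n = 2; limma adjusted p = 0.0515), with 0.77 for males and 0.46 for females. In 3 other settings, a filter on both channels, the intensity trend and robust eBayes, 1 of the 3 was called. Tcf4 and Tcf12 had opposite signs on the arrays, with means of 0.0076 and 0.077. These values are from the brightest probe of each gene. With the probes of a gene averaged, the median of the E proteins went from 0.077 to -0.074. Among 14 tested bHLH factors of mesenchyme and muscle, Heyl and Hey2, known as Notch targets, rose by 0.92 ± 0.29 and 0.72 ± 0.30 (SD, n = 2; limma adjusted p = 0.00422 and 0.0249), and 0 fell. Both lost their calls with processed signals, median centring or the deposited value table. Of all tested genes 2.18% were called higher and 2.27% lower in the main setting.

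**Figure D3:**
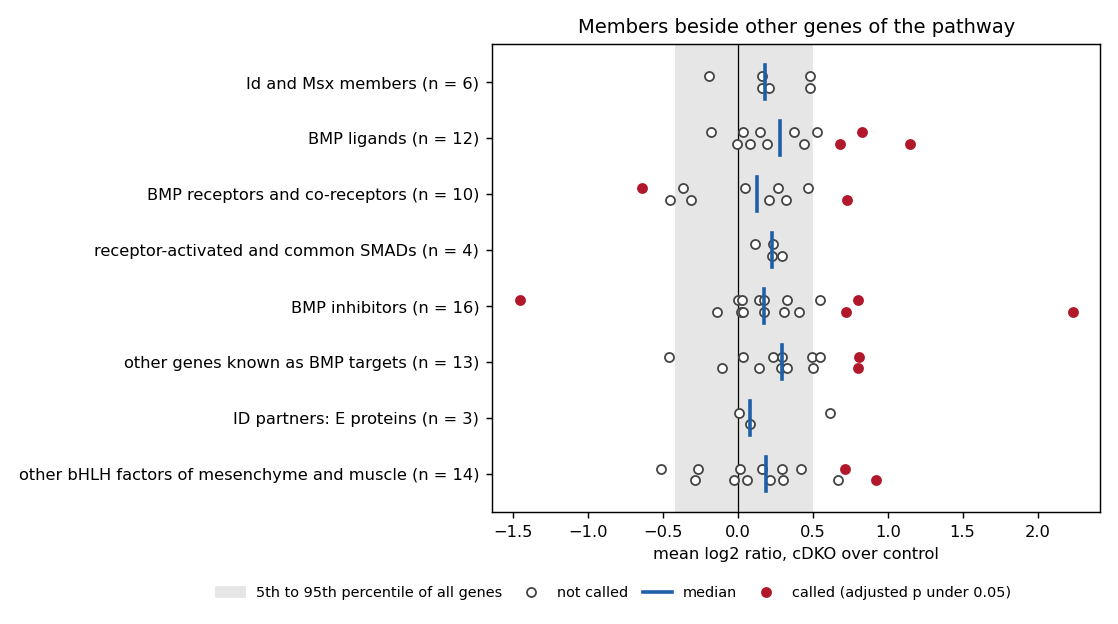
Mean log2 ratio of cDKO over control for each tested gene of the member set and of 7 other lists, with filled points for called genes, open points for the others, blue bars for medians and a grey band from the 5th to the 95th percentile of all genes. All 6 members lie inside the band, between -0.20 and 0.48, while Chrdl2 at -1.46 is the lowest point.

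All 9 smooth muscle and all 11 urothelial markers were well above background in at least one genotype. The counts of called markers below stand beside 2.18% of all tested genes called higher and 2.27% lower. Smooth muscle markers were lower in cDKO for 8 of 9 genes, with a median of -2.19 and summed processed signals of 77023 to 122787 in cDKO RNA, against 383638 to 624883 in control RNA. Fibroblast and mesenchyme markers, among them Tbx18 itself, were higher for 7 of 12, with a median of 0.67 and sums of 463022 to 530160 in cDKO RNA, against 240246 to 275171 in control RNA. Endothelial markers were higher for 2 of 10, with a median of 0.27 and sums of 46074 to 62937 in cDKO RNA, against 38095 to 47157 in control RNA. Urothelial markers had 0 of 11 called and a median of 0.22, with sums of 394179 to 485090 in cDKO RNA, against 319497 to 390386 in control RNA. Kidney markers were higher for 5 of 10 tested, with a median of 0.93 (0.95 male, 0.47 female). Their sums were 13369 in male cDKO RNA against 6069 in male control RNA, and 6409 against 6412 for females. Nphs1, Umod and Slc12a1 did not pass the filter on background. Red blood cell markers had 1 of 4 tested higher, a median of 0.56 and sums of 97277 to 113202 in cDKO RNA, against 65204 to 69930 in control RNA. The part of these cells in the ratios of the Id and Msx genes was not tested.

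The genes aimed at by the deletion, and Tbx18, had probes higher in cDKO RNA. The mean log2 ratio was 0.74 for Tbx2, 0.66 for Tbx3 and 0.81 for Tbx18. Each was above 0 on both arrays and was called higher (limma adjusted p = 0.0273, 0.0305 and 0.00778). The labels do not say which exons are removed. The Tbx2 and Tbx3 probes may therefore lie outside the deleted part and do not check the genotype. Every direction here is that of the labelled RNA. Between 72.1% and 81.6% of gene spots were well above background in each RNA, and no member's spot was saturated or marked as an outlier.

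**Figure D4:**
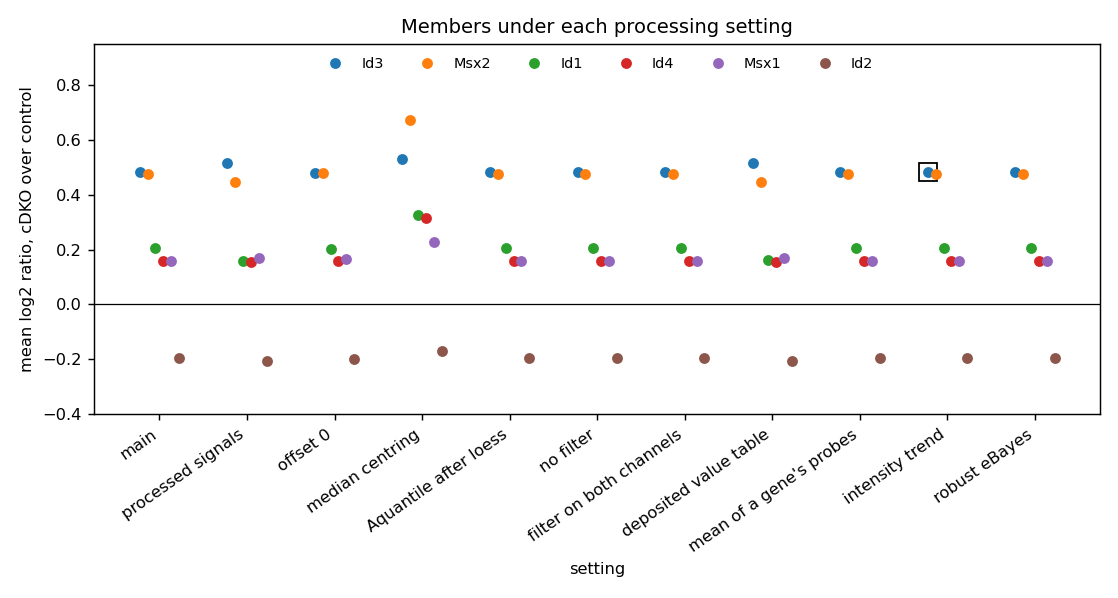
Mean log2 ratio of cDKO over control for the 6 tested members under the main setting and 10 others, with a square around any value called at an adjusted p under 0.05. The means differ from the main setting in 4 of the 10, the processed signals, offset 0, median centring and the deposited value table, and the one square is Id3 under the intensity trend.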

How the data were processed

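Per the file headers, the authors quantified the arrays with Agilent Feature Extraction 10.7.3.1, and the deposited columns hold mean spot and median local background intensity, a background-subtracted, dye-normalized processed signal intensity, a log10 ratio of red over green with its error, and 0 or 1 flags for spots. The deposited value table is a score with its scale not stated. Set against the scanner files it equalled the signed fold of cDKO over control processed signals within 0.001 log2 for 100% of spots above a signal of 100, with a column median of 1. Coordinates are on mm9.

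Background correction of mean intensities used normexp (offset 50), followed by within-array loess (limma 3.58.1, R 4.3.3). Control and outlier spots had weight 0. Ratios were turned to cDKO over control by the dyes in the labels. Probes well above background in one genotype on both arrays and measured on both were kept, 29274 of 39429. RefSeq accessions (GRCm38.p6) named 26412 probes and the file's own symbol 13017. The brightest probe stood for a gene, giving 23419 genes. The mean log2 ratio was tested against 0 with lmFit and eBayes (two-sided, Benjamini-Hochberg over probes, threshold 0.05). With 1 residual against 13.9 prior degrees of freedom, the spread behind each p-value is drawn largely from all probes. The fit was tested on simulated data. The members and lists were chosen with earlier results of these data known, so lists are given as counts and medians with no set test. Named genes are all members, the 3 E proteins, and of each list up to 4 called genes with the largest change in 1 direction on both arrays, or 2 genes where fewer were called. One gene that this rule names is not reported here.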

Additional observations from a re-analysis of the deposited data

Results flagged for a closer look

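Several values had opposite signs on the arrays of the 2 sexes, and the difference was not tested, since there is 1 array of each sex and the dyes were exchanged with it. Id4 was at 0.37 for males and -0.052 for females, and Msx1 at 0.36 and -0.052. Tcf4 was at -0.17 for males and 0.19 for females, and Tcf12 at -0.20 and 0.35. Of the lists, the median of the E proteins was -0.17 for males and 0.35 for females, that of the receptors and co-receptors -0.012 and 0.11, and that of the bHLH factors 0.34 and -0.13. Of all genes 40.3% had opposite signs on the arrays.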

How the results depend on the processing

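Each ratio already pairs both genotypes of 1 array, so the main test is itself paired and no separate paired setting was run. The alternatives were the processed signals, offset 0, median centring, Aquantile after loess, no filter, a filter on both channels, averaging the probes of a gene, the deposited value table, robust eBayes, an intensity trend and each array alone, which has no test. In 6 of the 10 settings with a test, the mean of each tested member is the main value itself. They are Aquantile, both filters, averaging probes, robust eBayes and the intensity trend. There only the p-value could move, and under Aquantile it could not move either, so Aquantile is no separate check. In the other 4 the means of the 6 members had the sign of the main setting. Of these, processed signals and the deposited value table gave nearly the same means, 0.5155 and 0.5157 for Id3. They are therefore not separate checks of the sign. On the female array alone Id4 and Msx1 were both at -0.052. Id3 passed under the intensity trend alone (0.48, adjusted p = 0.0329), so that 1 member was called there and 0 in the others. Over all genes the calls higher and lower were 511 and 531 in the main setting, 93 and 159 with processed signals, 163 and 157 after median centring, 936 and 663 under the intensity trend, and 0 and 0 in the deposited value table (limma; 2434 genes had an unadjusted p under 0.05). Aquantile, where no call could change, is counted among the settings here. Of the called genes named from the other lists, Chrdl2 kept its call in 9 settings and the rest in 5 to 8. The causes were not tested. Signal over background limited Bambi, and the precision of every ratio is limited by there being 2 arrays. Without the filter Bambi entered the fit at 0.20 (adjusted p = 0.663), a value drawn from signals at background.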
